A study of Homo sapiens with 6 samples.

Results

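The 40 genes described here encode the folding machinery of the endoplasmic reticulum (ER), the ER-associated degradation (ERAD) pathway and the sensors of the unfolded protein response (UPR). They were chosen by name for these functions, with earlier results of these data known, and make up 40 of the 21447 genes summed from the files. RNA was measured in bulk by RNA sequencing of U-2 OS cells, a human osteosarcoma line with no genotype other than the parental one in the labels, in 3 untreated libraries and in 3 libraries of cells taken 24 h after 4 Gy of ionizing radiation (IR). The cells were unsynchronized, and the comparison of IR with untreated asks which transcripts differ in abundance in the irradiated population.

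Proteins that enter the secretory pathway fold in the ER with the help of chaperones, lectins that bind their glycans and enzymes that form their disulfide bonds, and those that fail are returned to the cytosol by ERAD and degraded. When unfolded proteins accumulate, the transmembrane sensors IRE1, PERK and ATF6 signal to the nucleus, and the transcription factors XBP1, ATF4 and cleaved ATF6 raise the RNA of chaperones and of ERAD components. Among their best-known targets are HSPA5, which encodes the chaperone BiP, and HSP90B1, which encodes GRP94.

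All values below are estimated counts summed over the transcripts of a gene. They are given as normalised counts (CPM, scaled to the size and composition of the library) unless TPM, which is also scaled for transcript length, is named. The estimated counts totalled between 18573309 and 22953834 in 5 libraries and 45308792 in IR replicate 3, which makes that library the least affected by counting error. IR replicate 3 also stood apart from the other IR libraries, with a chi-square per gene of 29.1 and 32.3 against them, where IR replicates 1 and 2 differed by 5.96. The methods describe triplicate, independent samples, but neither they nor the labels say whether these were separate cultures, and P values measure the spread between these libraries. CDKN1A and MDM2, both induced by p53, rose by 1.53 and 0.60 on the log2 scale. All 4 p53 targets taken as a check of the labels (with GADD45A and FAS) were higher. The paper lists the same 4 genes as strongly induced in this RNA sequencing, so their rise was known beforehand and is no independent result. Of 9 markers of bone and mesenchyme, SPARC was at a median of 1928 TPM and COL1A1 at 558 TPM, but RUNX2 was at 4.39 TPM and ALPL at 1.14 TPM. The summed level of the 9 was 4566 to 4930 TPM in untreated and 4740 to 5688 TPM in IR libraries. The summed levels of markers of other cell types were 17.2 to 21.3 TPM in untreated and 18.0 to 21.1 TPM in IR libraries for epithelium, 10.3 to 15.7 and 11.6 to 22.6 TPM for leukocytes, and 0.819 to 2.63 and 0.955 to 1.196 TPM for endothelium, with CD3E at 0 in all 6 libraries.

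Of the 40 genes, 39 passed the filter on low counts. The other, DERL3, a member of the derlin family of ERAD channel proteins, had 0 counts in all 6 libraries. After IR, 11 of the 39 genes were higher and 2 were lower at an adjusted P under 0.05 in edgeR's quasi-likelihood test, where 15.5% of the 14323 genes tested were higher and 14.5% lower. As shares of the 39, these were 28.2% higher and 5.13% lower. Together they came to 33.3%, close to the 30.1% called in either direction among all genes. The 3 libraries of one group did not overlap with those of the other in 20 of the 39 genes (51.3%), and in 47.1% of all genes tested. The log2 fold change was above 0 in 27 genes, or 69.2% against 51.3% of all genes, and its median was 0.10 against 0.010. Most of the called differences were small, with 9 of the 11 higher genes rising less than 1.5-fold. In bulk RNA a smaller number of expressing cells and less RNA per cell cannot be told apart, and 3 libraries against 3 allow no exact permutation P below 0.1, which was the value for every gene with no overlap.

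**Figure D1:**
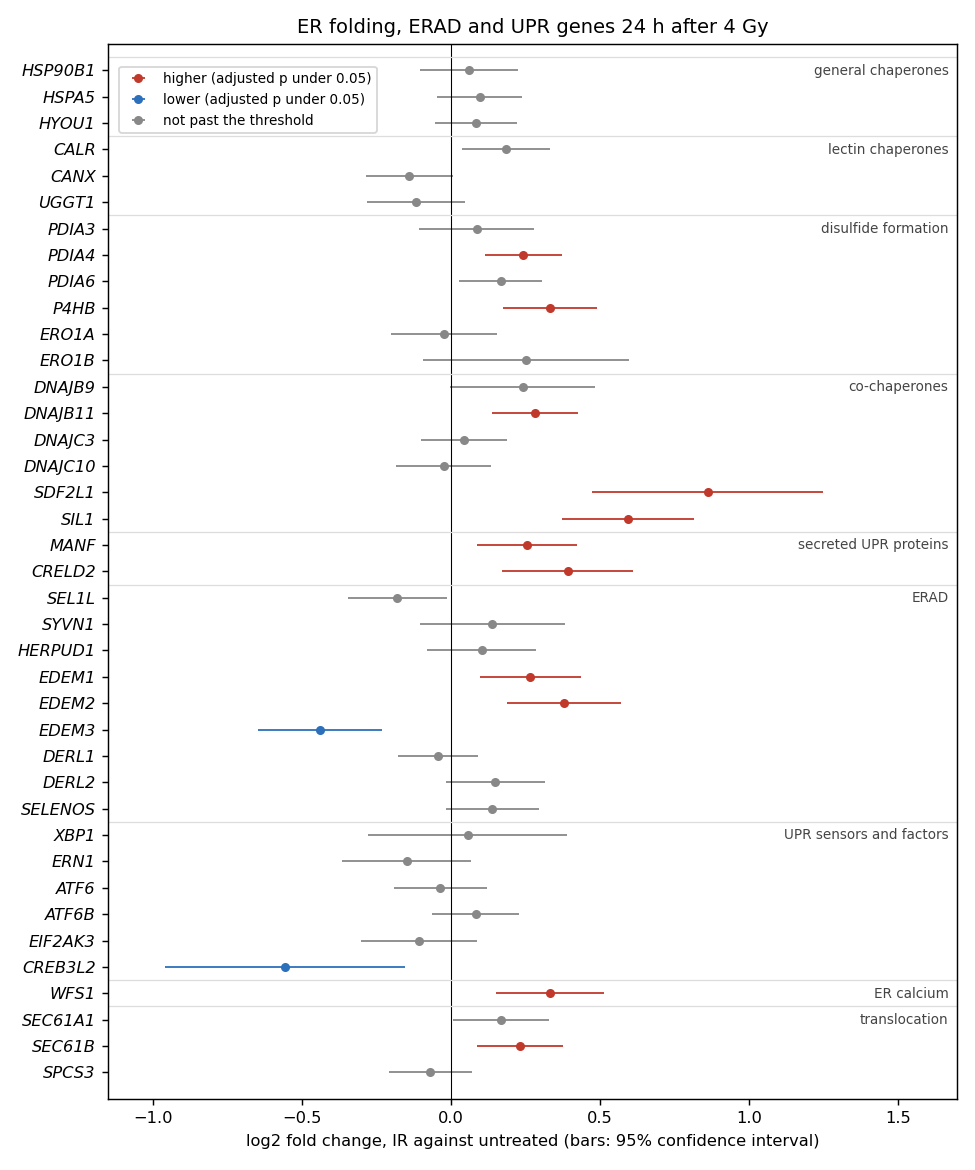
Log2 fold change of IR against untreated for the 39 genes tested, ordered by role from top to bottom, with 95% confidence intervals as bars (edgeR, 3 libraries per group). The 11 genes called higher lie between 0.23 for SEC61B and 0.86 for SDF2L1, the 2 called lower are EDEM3 at -0.44 and CREB3L2 at -0.56, and the chaperones HSP90B1, HSPA5 and HYOU1 lie within 0.096 of 0.

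Levels per length spanned a wide range. CALR had the highest median over the 6 libraries at 1104 TPM, followed by PDIA3 at 893 TPM, HSP90B1 at 783 TPM, HSPA5 at 549 TPM and PDIA6 at 502 TPM. These 5 encode abundant residents of the ER lumen. The CALR libraries lay between 966 and 1183 TPM and those of PDIA3 between 865 and 952 TPM, so that these neighbours in the order overlapped, whereas HSP90B1 reached 855 TPM at most and lay below every PDIA3 library. HSPA5 (516 to 593 TPM) and PDIA6 (457 to 592 TPM) also overlapped. At the low end were ERO1B, an oxidase that recharges disulfide isomerases, at 4.82 TPM, the transcription factor CREB3L2 at 4.53 TPM and ERN1, which encodes IRE1, at 3.89 TPM.

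**Figure D2:**
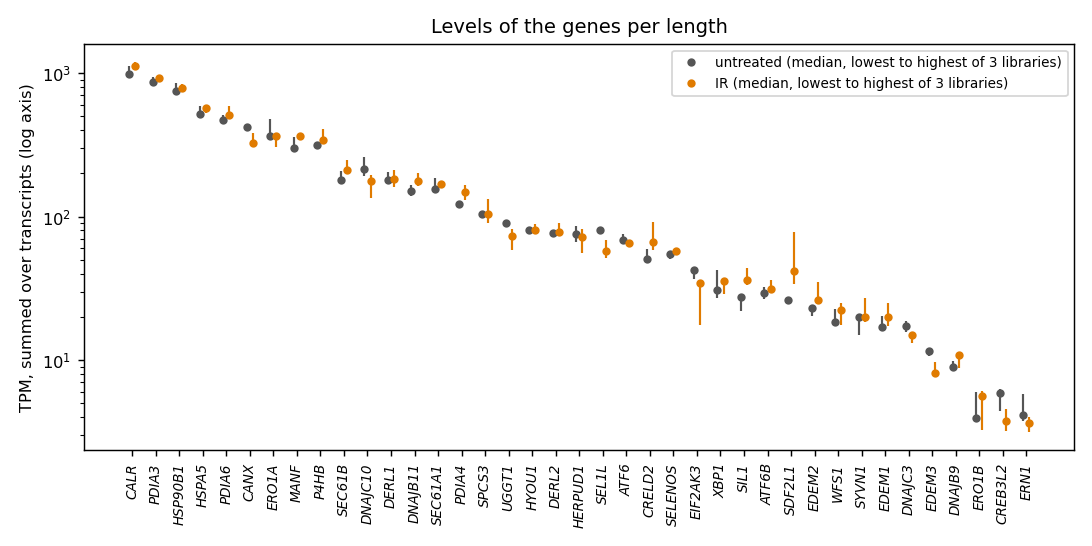
Level of each gene in TPM on a log axis, summed over transcripts, for untreated (grey) and IR (orange) libraries, with the median as a point and the lowest and highest of 3 libraries as a bar. CALR leads with a median of 1104 TPM over the 6 libraries, and ERN1 is last of the genes detected with 3.89 TPM.

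None of the 3 general chaperones was called. HSPA5, the Hsp70-type chaperone BiP that also holds the UPR sensors inactive (chromosome 9, 125234853 to 125241382 of GRCh38), measured 982, 990 and 1074 CPM in the untreated libraries (replicates 1, 2 and 3, the order kept below) and 1105, 1106 and 1045 CPM after IR. IR replicate 3 lay below untreated replicate 3, so that the groups overlapped. The log2 fold change was 0.096 ± 0.064 (SE, n = 3 per group, edgeR adjusted P = 0.279, 95% confidence interval -0.046 to 0.24), an interval that holds no rise of more than 0.24. HSP90B1, the Hsp90 of the ER (chromosome 12, 103930107 to 103953931), was at 1112, 1115 and 1234 CPM in untreated and at 1257, 1246 and 1104 CPM in IR libraries. Here IR replicate 3 was the lowest of the 6, and the log2 fold change of the gene's sum was 0.059 ± 0.074 (edgeR adjusted P = 0.572). HYOU1, which exchanges the nucleotide of BiP, was between 304 and 332 CPM in untreated and between 330 and 344 CPM in IR libraries, with a log2 fold change of 0.083 (adjusted P = 0.330).

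While the sum of HSP90B1 was not called, its division among transcripts was. Transcript usage was tested in 35 of the 40 genes and was called in HSP90B1 alone (edgeR's diffSpliceDGE with Simes P values, adjusted P = 4.46e-12). Of all 10666 genes tested, 2.67% were called, so 1 call among 35 genes is near the share of all genes. The files hold 35 transcripts of HSP90B1, of which 4 were at 0 in every library. HSP90B1-201, the canonical transcript of 2782 bases and 18 exons, was at 1032, 1039 and 1166 CPM in untreated libraries and at 1110, 1048 and 552 CPM in IR libraries. IR replicates 1 and 2 lay within the untreated range, and IR replicate 3 lay far below it. As a share of the gene, this transcript was at 92.9%, 93.1% and 94.5% in untreated and 88.3%, 84.1% and 50.1% in IR libraries. The means were 93.5% and 74.2%, the second drawn down by IR replicate 3. Its own P in the usage test was 0.729 (diffSpliceDGE, not adjusted).

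The transcript that led the test was HSP90B1-230, annotated as a target of nonsense-mediated decay, the pathway that degrades RNAs with a premature stop codon. After rounding to whole numbers, its estimated count was 0 in every untreated library. The IR libraries measured 71.9, 121 and 174 CPM, so that the groups did not overlap. HSP90B1-230 therefore passed the low-count filter through the IR libraries alone. The test took estimated counts as counts, so its P value does not include the uncertainty of dividing reads among transcripts. In IR libraries it made up a mean of 10.4% of the gene's estimated counts. By rounded counts, 142 transcripts of the 40 genes had a mean of at least 5 CPM in one group. Of these, HSP90B1-230 alone was above 0 in every library of one group and at 0 in every library of the other. Among all genes, 93 of 24501 such transcripts (0.38%) shared this pattern.

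HSP90B1-230 has 2570 bases, none of which is absent from HSP90B1-201, and it lacks 212 bases of that transcript. Of these, 205 are the beginning of exon 5, which HSP90B1-230 enters at a later acceptor site. The junctions of exon 4 and exon 5 are printed because they are what tells the decay transcript from the canonical one. Exon 4 ends at position 103932942 on the plus strand of chromosome 12 (GRCh38) in both, and exon 5 begins at 103933956 in HSP90B1-201 and at 103934161 in HSP90B1-230. The last 15 bases of exon 4 are in lower case and the first 15 of exon 5 in capitals, and all lie in coding sequence of HSP90B1-201.
HSP90B1-201: acagtcaaaattaagTGTGATAAGGAGAAG
HSP90B1-230: acagtcaaaattaagCAGATAAGGTTATTG

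Because all bases of HSP90B1-230 occur in HSP90B1-201, the junction is the sequence that HSP90B1-230 has and HSP90B1-201 lacks. Reads within the 205 bases belong to HSP90B1-201 and not to HSP90B1-230, and reads in the bases they share were divided between them by kallisto. The reads themselves were not analysed here. Summed over the 9 decay transcripts of the gene, the level was 14.5, 11.2 and 9.58 CPM in untreated and 91.6, 150 and 221 CPM in IR libraries. As a share of HSP90B1 this was 1.31%, 1.01% and 0.776% in untreated and 7.29%, 12.02% and 20.04% in IR libraries, with no overlap. HSP90B1-230 is among the 9 and held most of these sums in IR libraries, at 71.9, 121 and 174 CPM. The sums are therefore no separate observation. The 9 coding transcripts together were at 1048, 1071 and 1183 CPM in untreated and 1137, 1068 and 851 CPM in IR libraries, where the groups overlapped and IR replicate 3 was the lowest. In that library a further coding transcript, HSP90B1-218, which has another first exon with 23 bases that HSP90B1-201 lacks, was at 288 CPM. Its rounded count was 0 in the other 5 libraries. Exons of HSP90B1 overlap those of UQCC6 on the opposite strand, and the strand of the libraries is not given in the sources used here.

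**Figure D3:**
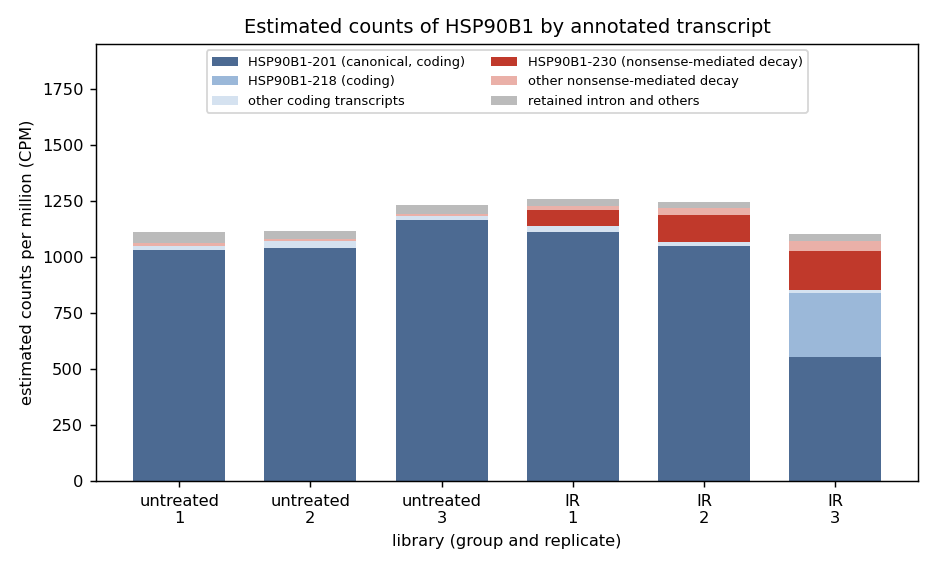
Estimated counts of HSP90B1 in CPM for each of the 6 libraries, stacked by annotated transcript. The red segment, HSP90B1-230, is absent from the untreated bars and reaches 71.9, 121 and 174 CPM in the IR bars, and the light blue segment in IR replicate 3 is HSP90B1-218 at 288 CPM.

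The 3 genes of the lectin cycle, which retains glycoproteins until they are folded, gave no call. CALR, the soluble lectin calreticulin, was at 1264, 1298 and 1345 CPM in untreated and 1420, 1582 and 1438 CPM in IR libraries. All IR libraries were above all untreated ones, and edgeR's test gave a log2 fold change of 0.18 with an adjusted P of 0.0583. CANX, the membrane-bound lectin calnexin, lay on the other side, at 812, 825 and 837 CPM in untreated and 793, 755 and 699 CPM in IR libraries, with no overlap, a log2 fold change of -0.14 and an adjusted P of 0.135. UGGT1, which marks misfolded glycoproteins for another round, had a log2 fold change of -0.12 with overlapping groups.

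Of the 6 genes of disulfide formation, 2 were higher and none lower. P4HB, the protein disulfide isomerase PDI, was at 560, 564 and 544 CPM in untreated libraries and at 653, 683 and 762 CPM in IR libraries, with IR replicate 3 the highest and no overlap. It rose by 0.33 ± 0.071 on the log2 scale (edgeR adjusted P = 0.00733). PDIA4, an isomerase with additional thioredoxin domains, was at 277, 280 and 282 CPM in untreated and 337, 327 and 327 CPM in IR libraries and rose by 0.24 ± 0.057 (adjusted P = 0.0114). The other isomerases were not called, PDIA6 with a log2 fold change of 0.17 (adjusted P = 0.0675, groups not overlapping) and PDIA3, which acts with the lectins, with 0.086. The oxidases ERO1A and ERO1B had log2 fold changes of -0.023 and 0.25, both with overlapping groups.

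Among 6 co-chaperones of BiP, 3 were higher, and they held the pair of highest log2 fold changes of all 39 genes. SDF2L1, a partner of the ER J-domain proteins (chromosome 22, 21642302 to 21644299), was at 20.4, 21.2 and 18.2 CPM in untreated and at 31.3, 28.3 and 47.9 CPM in IR libraries. Every IR library was above every untreated one, and IR replicate 3 was far above the other IR libraries. It rose by 0.86 ± 0.17 on the log2 scale (edgeR adjusted P = 0.00578), and by 0.57 without IR replicate 3. SIL1, a nucleotide exchange factor of BiP (chromosome 5, 138946724 to 139293557), was at 15.8, 13.5 and 15.4 CPM in untreated and 20.3, 24.0 and 23.2 CPM in IR libraries. These groups were apart in every library, and SIL1 rose by 0.59 ± 0.099 (adjusted P = 0.00242), the lowest adjusted P of the 39 genes. DNAJB11, the abundant J-domain protein ERdj3, was at 138, 151 and 154 CPM in untreated and 182, 179 and 179 CPM in IR libraries and rose by 0.28 ± 0.065 (adjusted P = 0.0101). The other J-domain genes were not called, with log2 fold changes of 0.24 for DNAJB9, which also represses IRE1, 0.043 for DNAJC3 and -0.024 for DNAJC10, a disulfide reductase. Exons of DNAJB11 overlap an unnamed gene on the same strand and those of SIL1 overlap MATR3 on the opposite strand, so that reads in these stretches may belong to either gene.

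Both secreted proteins of the set were higher. CRELD2, released from cells under ER stress, was at 61.1, 60.8 and 66.9 CPM in untreated and 69.6, 86.8 and 90.8 CPM in IR libraries and rose by 0.39 ± 0.099 on the log2 scale (edgeR adjusted P = 0.0151). IR replicate 1 was closest to the untreated libraries, and exons of CRELD2 overlap those of ALG12 on the opposite strand. MANF, which binds BiP and is secreted when ER calcium falls, was between 96.0 and 102 CPM in untreated and between 106 and 125 CPM in IR libraries and rose by 0.25 (adjusted P = 0.0290). The lowest of its IR libraries was IR replicate 3.

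In the ERAD pathway, 9 of 10 genes were tested, 2 were higher and 1 lower, and these 3 were the EDEM family, lectin-like proteins that act on mannose glycans of misfolded proteins. EDEM2, which begins the trimming, was at 38.9, 37.7 and 34.0 CPM in untreated and 44.1, 46.9 and 52.4 CPM in IR libraries and rose by 0.38 ± 0.087 on the log2 scale (edgeR adjusted P = 0.00990). EDEM1 was between 76.9 and 85.2 CPM in untreated and between 91.0 and 106 CPM in IR libraries and rose by 0.27 (adjusted P = 0.0246). In neither gene did the groups overlap. EDEM3, which continues the trimming (chromosome 1, 184690237 to 184754907), went the other way, at 40.3, 38.5 and 38.3 CPM in untreated and 32.7, 28.4 and 25.6 CPM in IR libraries. All IR libraries were below all untreated ones, and EDEM3 fell by 0.44 on the log2 scale (SE 0.094, adjusted P = 0.00747).

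The membrane complex that moves ERAD substrates to the cytosol was not called in any part. SEL1L, its scaffold, was between 278 and 290 CPM in untreated and between 229 and 276 CPM in IR libraries, with no overlap and a log2 fold change of -0.18 (edgeR adjusted P = 0.0955). SYVN1, the ubiquitin ligase HRD1, had a log2 fold change of 0.14, HERPUD1, which holds the complex together and is a UPR target, 0.10, SELENOS 0.14, DERL2 0.15 and DERL1 -0.045. Of these, SELENOS and DERL2 did not overlap between groups, with adjusted P values of 0.161 and 0.154. Exons of SYVN1 overlap those of FAU on the same strand.

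**Figure D4:**
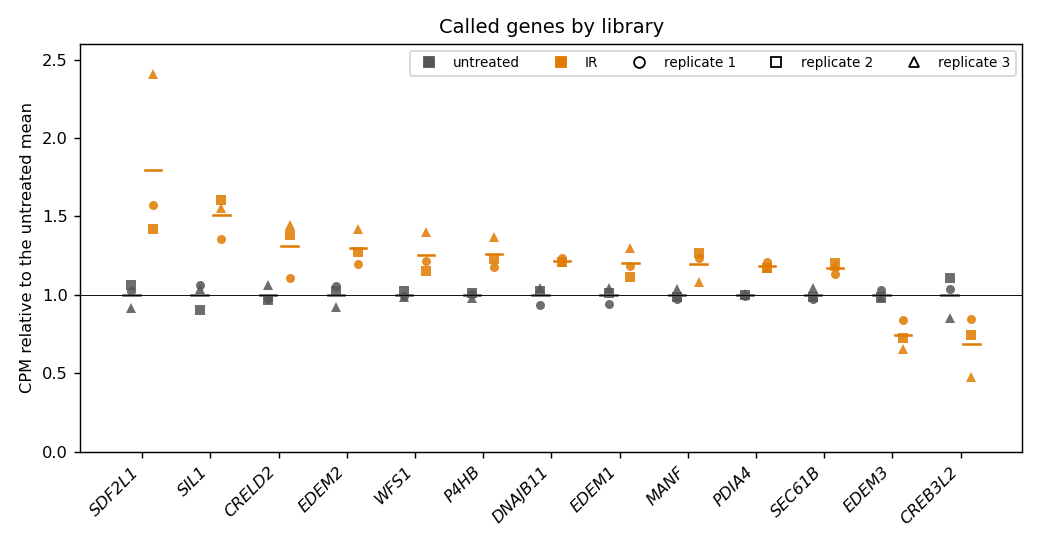
CPM of each of the 13 called genes in each library relative to the mean of the untreated libraries, with horizontal bars at the group means and symbols for replicate numbers. The 3 IR libraries of every gene shown lie outside the range of its untreated libraries, and IR replicate 3 (triangles) is farthest from it for SDF2L1, EDEM2, WFS1, P4HB, EDEM3 and CREB3L2, among others.

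Of the 6 sensors and transcription factors of the UPR, none was higher and 1 was lower. ERN1, the kinase and RNase IRE1, was at 16.9, 14.5 and 17.1 CPM in untreated and 14.04, 14.59 and 15.01 CPM in IR libraries, with a log2 fold change of -0.15 ± 0.097 (edgeR adjusted P = 0.269). EIF2AK3, the kinase PERK that lowers translation, was at 46.1, 47.3 and 42.2 CPM in untreated and 43.8, 45.2 and 37.4 CPM in IR libraries, with a log2 fold change of -0.11 ± 0.088 (adjusted P = 0.376). ATF6, the factor that is cut in the Golgi, was at 124, 110 and 112 CPM in untreated and 112, 118 and 108 CPM in IR libraries, with -0.036 ± 0.070 (adjusted P = 0.732). In all 3 sensors the groups overlapped. ATF6B, its paralogue, had a log2 fold change of 0.083, and its exons overlap those of TNXB on the same strand. CREB3L2, a membrane-bound factor that drives secretory genes after cleavage (chromosome 7, 137874979 to 138002086), was at 40.9, 43.6 and 33.7 CPM in untreated and 33.3, 29.3 and 18.9 CPM in IR libraries. IR replicate 1 lay just under untreated replicate 3, and IR replicate 3 was lowest. It fell by 0.56 on the log2 scale (SE 0.18, adjusted P = 0.0420), and by 0.34 without IR replicate 3.

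XBP1, whose RNA is cut by IRE1 when the UPR is active, was at 34.9, 53.5 and 38.8 CPM in untreated and 48.3, 37.2 and 46.6 CPM in IR libraries (log2 fold change 0.056 ± 0.15, edgeR adjusted P = 0.807). The groups overlapped fully. IRE1 removes 26 bases from the coding sequence in exon 4, which shifts the frame to the longer, active protein. The annotation places this gap at chr22:28796128-28796153 of GRCh38, minus strand. The site is printed from the transcripts of the annotation because the files list both forms, XBP1-201 with the bases and XBP1-202 without them. Capitals mark the gap as annotated. The same spliced sequence results if the gap is shifted to the next base, so the capitals do not fix the exact cut.
XBP1-201: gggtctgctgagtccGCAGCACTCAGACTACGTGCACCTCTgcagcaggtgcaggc
XBP1-202: gggtctgctgagtccgcagcaggtgcaggc

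The spliced transcript XBP1-202 was at 3.13, 5.66 and 10.1 CPM in untreated and 7.07, 8.17 and 0 CPM in IR libraries. As a share of the coding transcripts that span the site it made up 10.1%, 11.3% and 28.7% in untreated and 15.4%, 23.6% and 0% in IR libraries, and the ranges of the groups overlapped in part. XBP1-201 ranged from 5.77 to 14.9 CPM in untreated libraries and from 1.36 to 31.2 CPM in IR libraries, and XBP1-204, which also keeps the bases, from 8.16 to 29.2 CPM and from 6.29 to 25.05 CPM. The deposited length of XBP1-202 was 1131 bases, against 1791 in the later annotation release, so that its estimate rests on fewer bases than the others. The other coding transcripts had 1690 to 1850 bases. The shares above were taken of CPM, which is not scaled for length, and would be larger in TPM wherever XBP1-202 was detected. Usage of XBP1 transcripts was not called (diffSpliceDGE adjusted P = 1.00).

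WFS1, an ER membrane protein of calcium homeostasis, was at 53.9, 55.7 and 53.5 CPM in untreated and 66.1, 62.7 and 76.2 CPM in IR libraries. The groups did not overlap, and WFS1 rose by 0.33 ± 0.082 on the log2 scale (edgeR adjusted P = 0.0134). Of 3 genes of protein translocation into the ER, 1 was called. SEC61B, a small subunit of the translocon, was between 58.0 and 62.0 CPM in untreated and between 67.5 and 71.8 CPM in IR libraries and rose by 0.23 (adjusted P = 0.0235). SEC61A1, the pore itself, had a log2 fold change of 0.17 (adjusted P = 0.107), and SPCS3, of the signal peptidase, -0.070.

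XBP1 and ATF6 act through short promoter elements, and the 300 bases around the RefSeq start site (250 before and 50 after) were searched for 3 of them on both strands in the 37 genes with an entry. The ER stress response element (ERSE) is CCAAT and CCACG with 9 bases between them. It occurred in 0.0769% of 35116 promoters, or 25 of 27305 gene symbols, and in 8 of the 37 genes. These 8 were HSPA5, HSP90B1, CALR, CANX, PDIA6, ERO1B, CRELD2 and XBP1. The 37 genes were chosen for their part in ER folding and the UPR, so their share is no test of the element. ERSE-II, which is ATTGG and CCACG with 1 base between them, occurred in 0.0541% of promoters and in HYOU1, HERPUD1 and SDF2L1. The UPR element (UPRE), TGACGTG, occurred in 1.97% of promoters and in DNAJC10, SEC61A1 and HYOU1, in the last of which it overlaps an ERSE-II.

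Of the 11 genes with an ERSE or ERSE-II, 2 were higher after IR, none was lower and the median log2 fold change was 0.10. Among the 26 with an entry and neither element, 9 were higher, 2 were lower and the median was 0.14. Of all genes tested, 15.5% were higher and 14.5% lower. The difference between genes with and without an element was not tested. A match describes the letters in the window and is no measure of binding. The 250 bases before the start site are printed for HSPA5, the classical target, which was not called, and for CRELD2 and SDF2L1, the 2 genes with an ERSE or ERSE-II that were. They are from RefSeq (GRCh38.p14), chr9:125241344-125241593 on the minus strand, chr22:49918384-49918633 on the plus strand and chr22:21642052-21642301 on the plus strand, with capitals for the ERSE of HSPA5 and CRELD2 and the ERSE-II of SDF2L1. The element lies in the direction of the gene in HSPA5 and on the opposite strand in CRELD2 and SDF2L1, and begins 66, 80 and 188 bases before the start site.
HSPA5: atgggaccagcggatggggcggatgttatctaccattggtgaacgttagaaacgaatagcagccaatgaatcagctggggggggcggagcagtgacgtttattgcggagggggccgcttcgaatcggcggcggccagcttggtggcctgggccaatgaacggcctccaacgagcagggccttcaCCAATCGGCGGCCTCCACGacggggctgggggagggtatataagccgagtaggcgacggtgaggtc
CRELD2: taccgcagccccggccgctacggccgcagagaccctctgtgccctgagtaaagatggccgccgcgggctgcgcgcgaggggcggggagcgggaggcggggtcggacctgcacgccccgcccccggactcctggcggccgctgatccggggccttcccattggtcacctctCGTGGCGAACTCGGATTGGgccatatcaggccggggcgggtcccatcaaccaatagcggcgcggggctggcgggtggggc
SDF2L1: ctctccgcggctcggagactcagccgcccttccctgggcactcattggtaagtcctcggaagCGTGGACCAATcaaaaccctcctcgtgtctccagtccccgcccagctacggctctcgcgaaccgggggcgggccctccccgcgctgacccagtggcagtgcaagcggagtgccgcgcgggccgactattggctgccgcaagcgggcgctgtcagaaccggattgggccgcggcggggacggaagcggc

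Fold changes of all genes followed the GC content of their transcripts, and the ER genes were read against this. In the lowest eighth of GC content the median log2 fold change of all genes was -0.19 and 9.98% of the called genes were higher, and in the highest eighth these were 0.34 and 98.7%. The median GC content of the 39 genes, 48.1%, was near that of all genes tested, 48.6%. Some called genes lay at the extremes, with SDF2L1 at 65.1%, WFS1 at 61.4% and CRELD2 at 60.5% in the highest eighth and EDEM3 at 37.8% in the lowest.

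After removal of each library's GC trend, 16 of the 39 genes were higher and 2 lower, where 11.7% of all genes were higher and 12.6% lower. The calls of WFS1 and CRELD2 were lost, with log2 fold changes of 0.047 and 0.13 (edgeR adjusted P = 0.591 and 0.268). SDF2L1 rose by 0.44 in that fit, P4HB by 0.17, and EDEM3 fell by 0.24. A further 7 genes of low to middle GC content became higher, DNAJB9 by 0.45, DERL2 by 0.29, PDIA6 by 0.24, ERO1A by 0.21, DNAJC3 by 0.20, HSP90B1 by 0.19 (adjusted P = 0.0297) and DNAJC10 by 0.19. HSPA5 remained without a call at 0.12 (adjusted P = 0.132). When the effective length from the files was used as an offset, 3 genes were higher and none lower, where 5.82% of all genes were higher and 6.11% lower. The 10 genes that lost their call there kept their sign, and in 4 of them the log2 fold change was larger than in the main comparison, at 0.32 for PDIA4, 0.48 for CRELD2, 0.30 for DNAJB11 and 0.28 for SEC61B. It was 0.25 for MANF, 0.24 for P4HB, 0.24 for EDEM1, 0.19 for WFS1, -0.36 for EDEM3 and -0.47 for CREB3L2, with adjusted P values of the 10 genes from 0.05001 (PDIA4) to 0.349 (WFS1). Single libraries also decided calls. Without untreated replicate 1, 4 genes were higher and 1 was lower, since PDIA4, DNAJB11, MANF, CRELD2, EDEM1, WFS1, SEC61B and CREB3L2 lost their calls. Without untreated replicate 2, 6 were higher and 1 was lower, with the calls of PDIA4, MANF, CRELD2, EDEM1, SEC61B and CREB3L2 lost. The call of CREB3L2 was also lost without untreated replicate 3 and without IR replicate 2, those of MANF, CRELD2 and SEC61B without IR replicate 2, that of MANF without IR replicate 1 and that of EDEM1 without IR replicate 3. Without IR replicate 1, UGGT1 and SEL1L were called lower, which made 4 lower, and without IR replicate 3 CALR was called higher. SDF2L1, SIL1 and EDEM2 were called in the main comparison and in all 14 alternatives, and the 13 called genes kept 1 sign throughout. The part of GC content and of effective length in the fold changes was not tested.

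**Figure D5:**
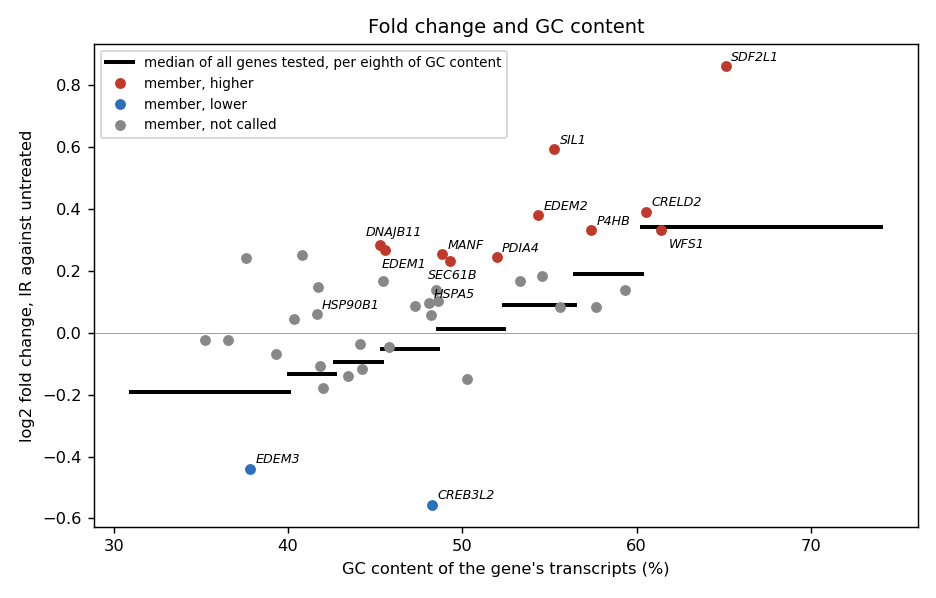
Log2 fold change of IR against untreated and GC content (%) for the 39 genes, as points, and the median log2 fold change of all 14323 genes tested in each eighth of GC content, as black bars. The bars rise from -0.19 to 0.34, with CRELD2 and WFS1 next to the bar of the highest eighth, SDF2L1, SIL1 and EDEM2 above the bars of theirs, and EDEM3 and CREB3L2 below.

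Other genes of the same processes, were counted beside the 39, from lists written by function with earlier results of these data known. The shares of all genes to set beside these counts are the 15.5% higher and 14.5% lower given above, and 5.82% and 6.11% with the effective length offset. Of 35 further ER folding genes, 12 were higher and 1 was lower, with a median log2 fold change of 0.11. Examples are the prolyl isomerases FKBP10, which rose by 0.44 (edgeR adjusted P = 0.00133), and PPIC, which rose by 0.42, and the Hsp70 relative HSPA13, which fell by 0.34. Of 25 further ERAD genes, 3 were higher and 3 lower, with a median of -0.010. OS9, a lectin that delivers substrates to SEL1L, rose by 0.24, and the ubiquitin ligase MARCHF6 and the inhibitor SVIP fell by 0.27 and 0.41. Leaving out untreated replicate 1 left 7 higher folding genes, and the range with 1 library left out was 7 to 13 for the folding genes and 1 to 5 for the higher ERAD genes, with 1 without any single untreated replicate or without IR replicate 2 and 5 without IR replicate 1. With the effective length offset 5 folding genes were higher and 1 was lower, and 0 ERAD genes were higher and 1 was lower, and the replicate block gave 1 higher and 2 lower ERAD genes.

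In the PERK branch, 5 of 12 genes were higher and 1 was lower, with a median of 0.17. ATF3, a stress-induced transcription factor that p53 also induces, was at 25.8, 27.0 and 27.8 CPM in untreated and 41.6, 47.5 and 47.0 CPM in IR libraries and rose by 0.76 ± 0.079 on the log2 scale (edgeR adjusted P = 3.28e-04). PPP1R15A, the phosphatase subunit GADD34 that reverses the effect of PERK on translation, rose by 0.41, and its constitutive relative PPP1R15B fell by 0.31. The branch had a median GC content of 56.3%, and with the GC trend removed 1 of its genes was higher and 2 were lower, with a median of 0.026. Without any single untreated replicate, or without IR replicate 3, 3 genes of the branch were higher, and with the effective length offset 2 were higher and 0 lower, with a median of 0.20. Among 13 tested genes of further UPR signalling and retrieval of ER proteins, 2 were higher (KDELR3, a retrieval receptor, by 0.34 and CREB3 by 0.30) and 2 were lower. The lower ones were NFYA and NFYB, subunits of the factor that binds the CCAAT part of ERSE, which fell by 0.34 and 0.36. Without untreated replicate 2, 1 gene of this list was higher and none lower, and without IR replicate 2, 1 was higher, and 1 was lower without untreated replicate 1, untreated replicate 3 or IR replicate 3. All 4 calls of this list were lost with the effective length offset.

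Of 26 further genes of translocation and N-glycosylation, 8 were higher and none lower, with a median of 0.17, and 12 were higher and none lower with the GC trend removed. The higher genes numbered 4 without untreated replicate 1 or 2 and 5 without IR replicate 2, and 1 with the effective length offset, where the median was 0.17. SSR4 and SSR3, subunits of the complex that assists translocation, rose by 0.62 and 0.36. Of 30 chaperones of the cytosol and mitochondria, 1 was higher (TRAP1 by 0.23) and 2 were lower (STIP1 by 0.22 and DNAJB1 by 0.19), and the median was -0.040. These 3 calls were lost without any single untreated replicate, with the replicate block and with the effective length offset. The difference between these lists and the ER genes was not tested.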

How the data were processed

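Bulk RNA sequencing of 3 untreated and 3 IR libraries of U-2 OS cells was grouped by the treatment label. The authors trimmed reads with fastp and assigned them with kallisto against GENCODE release 37 of GRCh38. The deposited files give, for each transcript, its length, its effective length and the estimated count, which is not normalized. The TPM values in the files had been scaled by the authors to effective length and to the library's total. An mRNA kit is named in the labels and a total RNA kit in the methods. The file of IR replicate 3 carries a mark that could stand for a repeat.

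Of 161171 transcripts, 158711 matched GENCODE release 44 by identifier and 2460 were left out. Estimated counts were summed over 21447 genes, rounded, kept by filterByExpr, scaled by TMM and tested by edgeR's glmQLFit and glmQLFTest (R 4.3.3, edgeR 4.0.16, limma 3.58.1), with Benjamini–Hochberg adjustment over 14323 genes and a threshold of 0.05. Standard errors were taken as the size of the log2 fold change divided by the root of its F statistic. The common biological coefficient of variation was 0.0931. Transcript usage was tested by diffSpliceDGE. TPM values were used for levels only. The tests were run on simulated counts that had no GC trend, no outlying library and no uncertainty in dividing reads, so their behaviour under these was not checked.

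The members and lists were chosen with earlier results of these data known. Values in every library are given for HSP90B1, HSPA5, ERN1, ATF6, EIF2AK3, XBP1 and, by P value, up to 8 called members in each direction. From the other lists, up to 2 called genes in each direction are named. CALR, CANX and the transcripts of XBP1 were added after their values were seen. Alternatives were no filter, at least 10 counts in every library, DESeq2 1.42.0 (its size factors, then its Wald test), the likelihood ratio test of edgeR, removal of the GC trend (lowess, span 0.3), an effective length offset, a replicate block, and each library left out. In untreated replicate 1, 28.2% of transcripts had an effective length above their length, so that the offset may not be one of length alone. The chi-square per gene between replicates was 3.46 or more in all 6 pairs, above sampling noise, and each library was counted once.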

Additional observations from a re-analysis of the deposited data

How the results depend on the processing

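Of the 13 called ER genes, 10 lost their call in at least 1 alternative and none changed sign. The effective length offset left 3 higher and 0 lower (833 and 875 of all genes), and DESeq2's Wald test left 1 lower. Leaving out 1 library gave 4 to 11 higher and 1 to 4 lower ER genes. Without untreated replicate 1 there were 4 and 1, without untreated replicate 2 there were 6 and 1, without untreated replicate 3 or IR replicate 2 there was 1 lower, and without IR replicate 1 there were 4 lower. Over all genes these fits gave 1295 to 2114 higher and 1244 to 2284 lower, with 1295 and 1287 without untreated replicate 1 and 1357 and 1244 without untreated replicate 2. ER genes called for usage numbered 1 to 2, with SYVN1 added without untreated replicate 1 and SEC61A1 without IR replicate 2. Usage calls over all genes were 518 with at least 10 counts in every library of one group, and 228 to 443 with 1 library left out, of which 443 without untreated replicate 3. HSP90B1 usage was called in every alternative, with adjusted P values from 6.69e-15 to 6.06e-06 (diffSpliceDGE). All alternatives used the same estimated counts, in which the leading transcript, HSP90B1-230, was at 0 in every untreated library after rounding. It passed the filter of the main comparison through the IR libraries alone, so the alternatives are no independent support for the call.

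Replicate numbers recur in both groups, but deviations of same-numbered libraries correlated at -0.017, 0.007 and -0.052, and neither labels nor methods tie them to a batch. The replicate block gave 9 higher and 2 lower ER genes, 1727 and 1624 over all genes, and 149 usage calls.

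Genes without a call that changed sign with the GC trend removed were HYOU1 (-0.024), ERO1A (0.21), DNAJC10 (0.19), SYVN1 (-0.077), DERL1 (0.022), ATF6 (0.055), ATF6B (-0.080), EIF2AK3 (0.021) and SPCS3 (0.11). With the length offset they were DNAJC3 (-0.20), HERPUD1 (-0.067), DERL1 (0.042) and SPCS3 (0.11). With 1 library left out, ERO1A ran from -0.066 to 0.050 (above 0 without untreated replicate 3 or IR replicate 3), DNAJC10 from -0.089 to 0.024 (above 0 without the same), XBP1 from -0.065 to 0.26 (below 0 without untreated replicate 1, untreated replicate 3 or IR replicate 1) and ATF6 from -0.069 to 0.019 (above 0 without untreated replicate 1). The cause was not tested. Standard errors of the ER genes were up to 0.18 on the log2 scale at 3 libraries per group, and smaller differences could not be resolved in every gene.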
